A study of Mus musculus with 3 samples.

Results

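NG2, the chondroitin sulfate proteoglycan encoded by Cspg4, divides the PDGFRβ+ cells of the AGM (the aorta-gonad-mesonephros region of the embryo) into double-positive (DP) cells and PDGFRβ-single (PDGFRβ-S) cells. Both were compared across the 21994 nuclear protein-coding genes among the 47069 genes of the deposited table, a choice that uses gene type and chromosome and no measured level. DP cells are NG2+ PDGFRβ+ and are described in the labels as vascular smooth muscle cells. PDGFRβ-S cells are NG2- PDGFRβ+ and are labelled as sub-vSMCs. Both were sorted from wild-type E11 (embryonic day 11) embryos of C57BL/6J mice. A further library, from double-negative (DN) stroma (NG2- PDGFRβ-), is given beside them. Cells with CD31, CD45 or cKit on their surface were gated out of all the sorts, no group carries a transgene or a treatment, and the numbers of embryos and of cells per library are not given in the sources used here. Each population gave 1 library, so no value below has a replicate and no test across genes was possible. The differences describe these libraries.

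Mural cells wrap the endothelium of blood vessels. They are recruited by PDGF-B from the endothelium through the receptor PDGFRβ, and those around arteries take on a smooth muscle program in which serum response factor (SRF), with its coactivator myocardin, and Notch signals from the endothelium activate genes of the contractile apparatus. In the AGM, blood stem and progenitor cells emerge from the wall of the dorsal aorta, and the mesenchyme under it is a source of matrix and of signaling proteins.

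Levels are TPM, read shares corrected for gene length, rescaled so that the nuclear protein-coding genes of a library add up to 1000000. The reads on these genes, in units of 1000000, came to 8.71 in DP cells, 7.44 in PDGFRβ-S cells and 9.30 in DN cells, and the floor of 3 reads was worth, at an exon length of 2 kb, 0.686 TPM in DP, 0.749 TPM in PDGFRβ-S and 0.658 TPM in DN. Intervals after a fold are 95% Clopper-Pearson intervals of the recovered reads. They cover counting error only and take PCR copies as separate reads. The libraries also differed outside these genes, since before rescaling ribosomal RNA with Gm42418 took 12.3% of TPM in DP cells, 0.624% TPM in PDGFRβ-S cells and 1.14% TPM in DN cells, and mitochondrial genes took 10.45%, 25.5% and 24.4%.

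The genes of the sort were examined first. Cspg4 (mm10, chromosome 9 between 56865104 and 56899870) had 18.6 TPM in DP cells, 1.12 TPM in PDGFRβ-S cells and 2.83 TPM in DN cells, and was 16.6-fold higher in DP than in PDGFRβ-S (10.4 to 28.4), on 327 and 18 reads. Pdgfrb (chromosome 18, 61045150 to 61085061) was at 62.1 TPM in DP cells, 33.0 TPM in PDGFRβ-S cells and 15.8 TPM in DN cells, and was 1.88-fold higher in DP than in PDGFRβ-S (1.69 to 2.097). Both libraries therefore carried the receptor transcript, and Cspg4 followed the gate. Of the surface proteins gated out, Pecam1 (CD31) had 3 reads in DP and 1 in PDGFRβ-S, Ptprc (CD45) had 0 reads in each, and Kit was at 2.12 TPM in DP and 2.28 in PDGFRβ-S. The smooth muscle label was read against 8 markers, which summed to 13339 TPM in DP cells, 484 TPM in PDGFRβ-S cells and 223 TPM in DN cells. Most of each sum was Acta2, at 11063, 341 and 182 TPM in the same order.

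A gene was counted as different at 4-fold or more, on log2((DP + 1)/(PDGFRβ-S + 1)), when its mean over DP and PDGFRβ-S was at least 5 TPM. Of 9919 genes that passed this filter, 573 were 4-fold or more higher in DP, 5.78% of them, and 151 were 4-fold or more lower in DP, 1.52%. At 2-fold, 2025 genes were higher (20.4%) and 1465 lower (14.8%), while 64.8% of the genes lay within 2-fold and the median log2 ratio was 0.02. The 2-fold counts of the lists below are to be read beside these shares of 20.4% and 14.8%. The 573 higher genes took 10.004% of the total in DP and 1.29% in PDGFRβ-S, and the 151 lower genes took 0.588% in DP and 6.71% in PDGFRβ-S. In bulk libraries such as these, fewer cells of a type and less RNA per cell cannot be told apart. Just inside the limit, the heat shock gene Hspa2 was at 18.9 TPM in DP and 3.96 in PDGFRβ-S. On the lower side the collagen gene Col25a1, at 3.49 TPM in DP and 17.0 in PDGFRβ-S, was the last gene counted, and Gm11060, at 44.4 and 180.4 TPM in DP and PDGFRβ-S, was the first one left out.

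**Figure D1:**
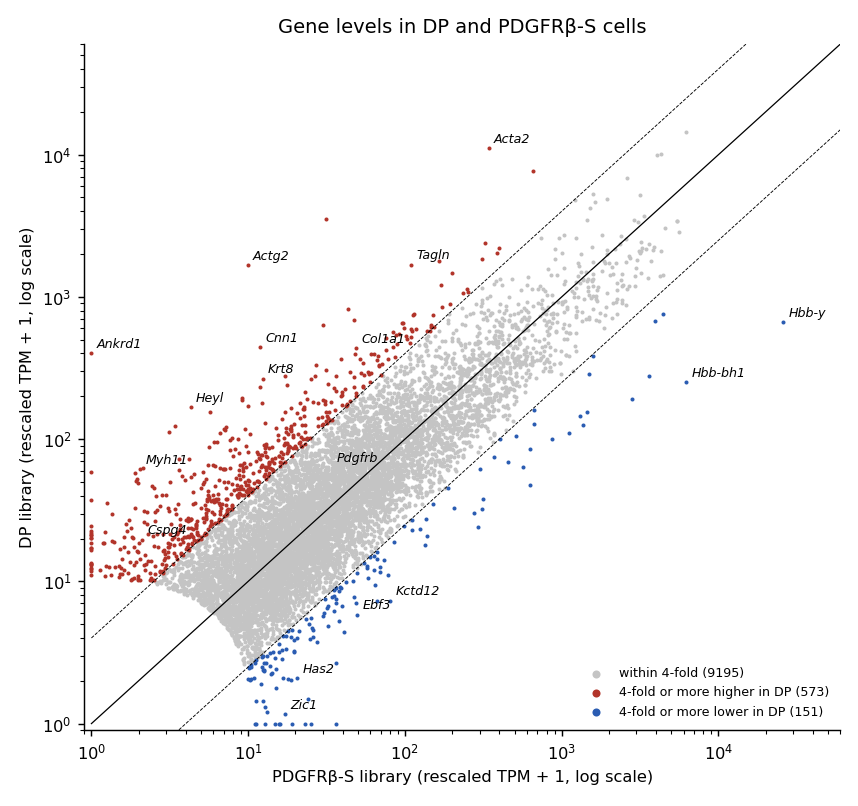
Level of each of the 9919 genes that passed the filter in the DP library (y axis) against the PDGFRβ-S library (x axis), as rescaled TPM + 1 on log scales, 1 library each. The solid line marks equal levels and the dashed lines 4-fold, with 573 genes above (red), 151 below (blue) and the other genes in gray. Acta2, Actg2 and Ankrd1 lie far above the band and Hbb-y and Hbb-bh1 far below it.

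The ratio between the libraries moved with the base composition of the transcripts. Genes were put in order of GC content and divided into 10 groups of equal size. In the group with the lowest content the median log2 ratio of DP over PDGFRβ-S was -0.65, with 0.908% of the genes 4-fold or more higher and 4.24% 4-fold or more lower. In the group with the highest content the median was 0.60, with 14.5% higher and 0.605% lower. The 573 higher genes had a median GC content of 54.4%, the 151 lower genes one of 45.7%, and all 9919 genes one of 48.8%. The ratio moved with exon length as well, but rose and then fell. The median log2 ratio was -0.21 in the group of the shortest genes. It was 0.29 in the third of 10 groups by length and -0.48 in the group of the longest genes. With the medians of GC and length bins subtracted, 333 genes were 4-fold or more higher and 199 lower, which changed the share of higher genes among those counted to 62.6%, against 79.1% as reported and 92.7% with TPM as deposited. Of the 573 higher genes 307 kept the limit, and of the 151 lower genes 103 did. Single genes moved to unlike extents. The log2 ratio of Cks2 went from -1.22 to -0.08 when centered and that of Uqcrb from -1.62 to -0.48. That of Acta2 was 5.02 before and 5.03 after, and that of Gas1 went from -1.37 to -2.38. The centered median is therefore given beside the lists below, while levels of single genes are given without centering. The part of GC content and length in single results was not tested.

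**Figure D2:**
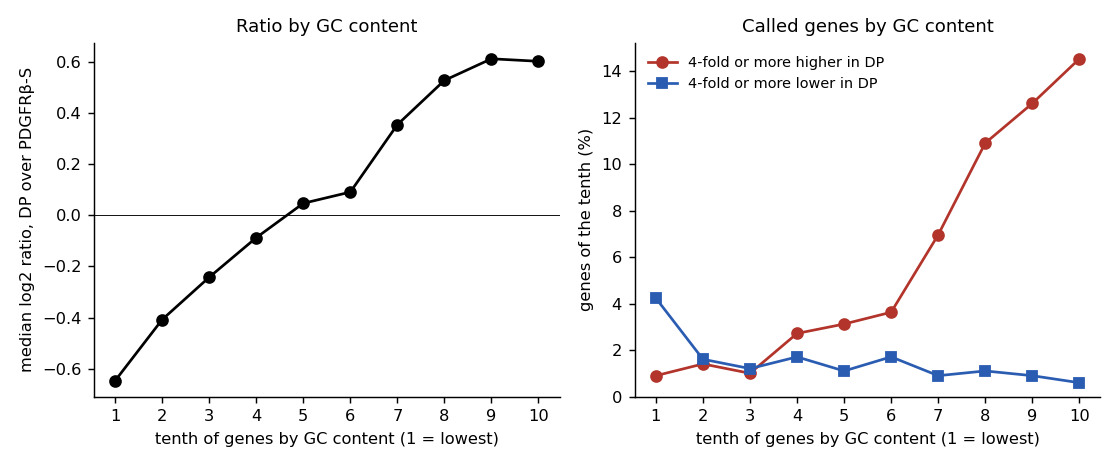
Median log2 ratio of DP over PDGFRβ-S (left) and percentage of genes counted at 4-fold or more (right) in 10 groups of equal size of the 9907 genes with a known GC content, lowest content at the left. The median climbs across the axis, between -0.65 and 0.61, and the share of genes higher in DP (red) climbs to 14.5% while the share of lower genes (blue) ends at 0.605%.

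Contractile genes led the higher side. Of the 30 genes of the contractile apparatus that passed the filter, 23 were 2-fold or more higher in DP and 1 lower, with a median log2 ratio of 1.92 (1.58 when centered for GC and length), against 0.02 over all genes. Acta2 (chromosome 19, 34241090 to 34255336), which encodes the α-actin of vessel walls, stood at 11063 TPM in DP cells, 341 TPM in PDGFRβ-S cells and 182 TPM in DN cells. This was 32.4-fold higher in DP than in PDGFRβ-S (30.6 to 34.4) and made Acta2 the second most abundant gene of the DP library, after the ubiquitin gene Ubb. Actg2 (chromosome 6, 83512905 to 83536265), which encodes the γ-actin of gut smooth muscle, stood at 1664 TPM in DP cells, 8.91 TPM in PDGFRβ-S cells and 7.33 TPM in DN cells, and the cardiac actin gene Actc1 (chromosome 2, 114047282 to 114053548) at 3515, 30.3 and 579.9 TPM. These actins are near-identical in sequence, so that reads may be shared among them and their single levels are uncertain.

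Cnn1, a calponin that binds actin and restrains myosin (chromosome 9, 22099281 to 22109630), was at 441 TPM in DP cells, 10.97 TPM in PDGFRβ-S cells and 0.556 TPM in DN cells, and was 40.2-fold higher in DP than in PDGFRβ-S (30.5 to 54.0). Myh11 (chromosome 16, 14194527 to 14291408), which encodes the myosin heavy chain of mature smooth muscle, stood at 60.3, 1.05 and 0.463 TPM, and Tagln (transgelin, chromosome 9, 45929628 to 45936058) at 1684, 109 and 30.4 TPM in these libraries in the order DP, PDGFRβ-S and DN. PDGFRβ-S lay above DN for Cnn1, Myh11 and Tagln, although far below DP. Other members of the list differed less. The myosin light chain gene Myl6 was at 5202 TPM in DP and 3162 in PDGFRβ-S, Tpm4 at 2248 and 1550 TPM, vinculin (Vcl) at 175 and 103 TPM and caldesmon (Cald1) at 80.9 and 71.1 TPM. At the low end of the list were Ppp1r12b, a subunit of myosin phosphatase, with 3.37 TPM in DP and 10.02 in PDGFRβ-S, and the integrin gene Itga8, with 11.6 and 20.7 TPM. Mylk, the kinase of myosin light chain, was the only one of the 8 smooth muscle markers within 2-fold, at 20.5 TPM in DP and 15.4 in PDGFRβ-S. Myocd (myocardin) was at 25.5 TPM in DP and 3.70 in PDGFRβ-S.

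**Figure D3:**
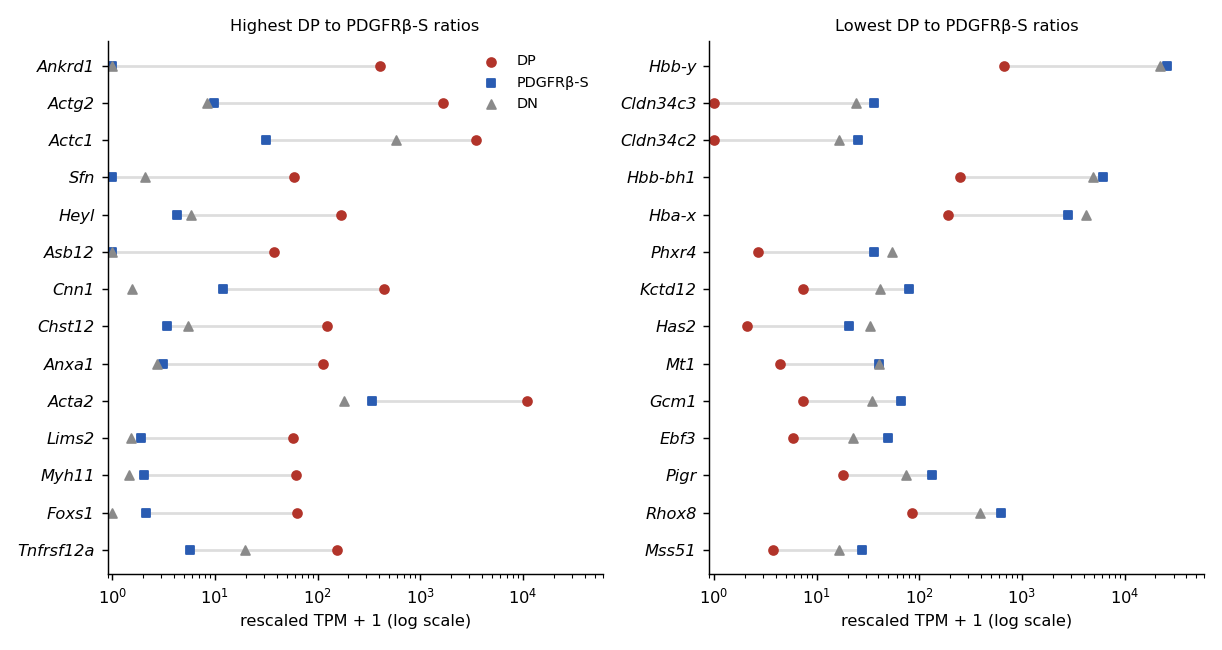
Rescaled TPM + 1 (x axis, log scale) in the DP (red circles), PDGFRβ-S (blue squares) and DN (gray triangles) libraries for 14 of the 15 genes with the highest (left) and 14 of the 15 with the lowest (right) ratio of DP over PDGFRβ-S, among genes with a mean of at least 10 TPM and without predicted genes, 1 library each. Ankrd1 is at 402 in DP and at 0 in PDGFRβ-S and DN, and Hbb-y is at 664 in DP and 25975 in PDGFRβ-S. For Actc1 the DN library lies between DP and PDGFRβ-S.

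The promoters of the 4 genes of the contractile list among the 15 highest ratios (Actg2, Cnn1, Acta2 and Myh11, since Actc1 stands on the skeletal muscle list) were examined for the motifs of SRF, TEAD and Notch, because these factors are known to act on such genes. RefSeq windows of 300 bases on GRCm38.p6, with 250 before and 50 after the start of transcription, were at hand for Cnn1 and Acta2. They are shown 5′ to 3′ on the strand of the gene. Capitals mark the TEAD motif GGAATG, the RBPJ motif TGGGAA and CArG boxes, the motif of SRF, in which 1 of the 6 middle bases is C or G.
Acta2, chr19:34255324-34255623, minus strand: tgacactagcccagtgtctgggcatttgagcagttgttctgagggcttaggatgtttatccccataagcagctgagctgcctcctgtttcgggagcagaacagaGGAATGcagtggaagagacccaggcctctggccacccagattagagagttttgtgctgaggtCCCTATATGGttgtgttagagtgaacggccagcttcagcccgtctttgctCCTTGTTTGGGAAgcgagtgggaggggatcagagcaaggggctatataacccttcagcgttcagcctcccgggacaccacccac
Cnn1, chr9:22099003-22099302, plus strand: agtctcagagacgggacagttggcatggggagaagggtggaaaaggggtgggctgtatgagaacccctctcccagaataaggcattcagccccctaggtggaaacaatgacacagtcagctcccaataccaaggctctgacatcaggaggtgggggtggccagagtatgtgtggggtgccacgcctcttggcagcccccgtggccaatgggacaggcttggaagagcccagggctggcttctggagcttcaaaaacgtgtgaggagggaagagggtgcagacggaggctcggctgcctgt
The Acta2 window held 1 GGAATG, 1 TGGGAA and 2 CArG boxes with such a substitution, CCCTATATGG and CCTTGTTTGG, the second of which overlaps TGGGAA. It held no CArG box with all 6 middle bases A or T, and no TATAAA. The Cnn1 window held none of the motifs searched, which says only that these letters are not in this window.

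Across all genes, 1 window a gene, a strict CArG box was found on either strand in 2.28% of the 438 matched promoters of higher genes, in 1% of 100 promoters of lower genes and in 1.44% of the 7526 promoters of all genes passing the filter. With 1 C or G in the middle, the shares were 10.05%, 5% and 7.63%. GGAATG was found in 15.8%, 13% and 11.7%, TGGGAA in 27.4%, 29% and 23.2%, and TATAAA in 10.502%, 9% and 6.46% of the promoters of higher, lower and all passing genes. The TEAD and RBPJ motifs and TATAAA were each found in a larger share of both kinds of called genes than of all passing genes, and these differences were not tested. Of all 27025 genes with a window in the table, 1.57% held a strict CArG box, 8.58% one with a substitution, 14.6% GGAATG, 25.5% TGGGAA and 14.2% TATAAA.

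Genes of SRF and TEAD regulation ranged widely. Ankrd1, a stretch-responsive muscle protein (chromosome 19, 36111965 to 36119844), had the highest ratio of all, with 402 TPM in DP and 0 reads in PDGFRβ-S and DN. Set against a floor of 3 reads in PDGFRβ-S, the level of Ankrd1 in DP was 900-fold higher. The lower end of its counting interval was 732-fold. The 2951 reads of Ankrd1 in DP are approximate, so both values are too. Ctgf, a matricellular target of YAP, was at 71.3 TPM in DP cells, 2.63 TPM in PDGFRβ-S cells and 3.41 TPM in DN cells, and Vgll3, a cofactor of TEAD, at 44.6, 1.504 and 10.96 TPM. Lower values in DP, each just within 2-fold with the pseudocount, were those of the DNA-binding factor Tead1 at 7.78 TPM in DP and 15.9 in PDGFRβ-S, Wwtr1 (TAZ) at 16.7 and 33.8 TPM and Mkl2, a coactivator of SRF, at 26.3 and 51.8 TPM. Of 20 measured members 7 were 2-fold or more higher and 0 lower, with a median log2 ratio of 0.33 that changed sign to -0.43 when centered for GC and length.

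The Notch target Heyl was among the 15 highest ratios and the Notch receptors that passed were not. Heyl, a repressor induced by Notch in mural cells (chromosome 4, 123233556 to 123249875), was at 167 TPM in DP cells, 3.30 TPM in PDGFRβ-S cells and 4.88 TPM in DN cells, 50.8-fold higher in DP than in PDGFRβ-S (36.4 to 73.1). The related gene Hey2 was at 33.2, 6.27 and 3.96 TPM, and Nrarp, a feedback inhibitor of the pathway, at 35.6, 5.22 and 1.02 TPM. Notch3, the main receptor of arterial smooth muscle in the adult, was at 6.70 TPM in DP and 6.77 in PDGFRβ-S, Notch2 at 12.8 and 29.8 TPM and the DNA-binding effector Rbpj at 8.16 and 16.8 TPM. The ligand gene Jag1 was at 65.7 TPM in DP cells, 39.1 TPM in PDGFRβ-S cells and 23.2 TPM in DN cells. Of 14 members that passed, 5 were 2-fold or more higher and 1 lower (median 0.59, centered 0.19).

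Pericyte genes did not move as one group. Of 27 that passed, 10 were 2-fold or more higher in DP and 6 lower (median 0.65, centered 0.34). Cd248 (endosialin) was at 278 TPM in DP cells, 16.2 TPM in PDGFRβ-S cells and 10.6 TPM in DN cells, Mcam (CD146) at 177, 11.2 and 13.8 TPM, and Rgs5, which dampens G-protein signals, at 199, 70.7 and 31.2 TPM. Kcnj8 and Abcc9, which form the ATP-sensitive potassium channel of pericytes, parted, with Kcnj8 at 17.2 TPM in DP and 8.92 in PDGFRβ-S and Abcc9 at 18.05 and 54.9 TPM. The lowest members were the transcription factor genes Zic1, Foxc1 and Ebf2, which are described with the other factors below. Higd1b and Steap4 had 0 reads in DP and PDGFRβ-S.

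The lists of matrix and adhesion genes held more members higher than lower in DP. Collagen genes, picked by symbol after their values were seen, were split. Of 24 that passed, 7 were 2-fold or more higher and 5 lower (median 0.18, centered -0.14). Of 30 genes of proteoglycans and matricellular proteins, 17 were 2-fold or more higher and 3 lower (median 1.26, centered 1.00), and of 31 genes of fibrillar and elastic matrix 14 were higher and 1 lower (median 0.79, centered 0.61). Gpc4, a glypican of the cell surface, was at 195 TPM in DP cells, 8.10 TPM in PDGFRβ-S cells and 13.1 TPM in DN cells. Col1a1, the main chain of type I collagen, was at 434, 47.8 and 26.5 TPM, 9.09-fold higher in DP than in PDGFRβ-S (8.39 to 9.86), and Fbln5, which is needed for elastic fibers, at 162, 21.3 and 1.28 TPM. Has2, the enzyme that makes hyaluronan (chromosome 15, 56665627 to 56694539), had the lowest ratio among them, at 1.08 TPM in DP cells, 19.5 TPM in PDGFRβ-S cells and 32.0 TPM in DN cells, 18.03-fold lower in DP than in PDGFRβ-S (9.56 to 38.3). Versican (Vcan), which binds hyaluronan, was at 43.0, 99.1 and 162 TPM, so that both followed the order DN, PDGFRβ-S, DP. Gpc6, another glypican, was at 47.0 TPM in DP and 95.6 in PDGFRβ-S, and Col8a2, a network-forming collagen and the 1 lower gene of the fibrillar and elastic list, at 1.66 and 11.97 TPM. Of 23 integrin and focal adhesion genes 14 were higher and 2 lower (median 1.30, centered 1.34), led by Lims2, an adaptor of integrin-linked kinase, at 57.1 TPM in DP cells, 0.888 TPM in PDGFRβ-S cells and 0.520 TPM in DN cells. Itga1, a collagen-binding integrin, was at 94.6, 5.01 and 5.57 TPM, and the αv integrin Itgav was lower at 10.9 TPM in DP and 26.0 in PDGFRβ-S.

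Genes of proteolysis at the cell surface and in the matrix were more often higher than lower in DP. Plaur, the receptor of urokinase, was at 45.5, 1.44 and 4.98 TPM in these libraries in the order DP, PDGFRβ-S and DN. Of 21 genes of complement, coagulation and serpins 11 were 2-fold or more higher and 1 lower (median 1.48, centered 1.33). Of 38 matrix proteases and collagen enzymes 14 were higher and 4 lower (median 0.47, centered 0.25), and 2 enzymes of collagen modification, P4ha2 (39.7 TPM in DP and 4.94 in PDGFRβ-S) and Plod1 (36.0 and 4.77 TPM), stood against the proteases Adamts19 (1.96 and 10.6 TPM) and Adamts20 (1.85 and 9.405 TPM).

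**Figure D4:**
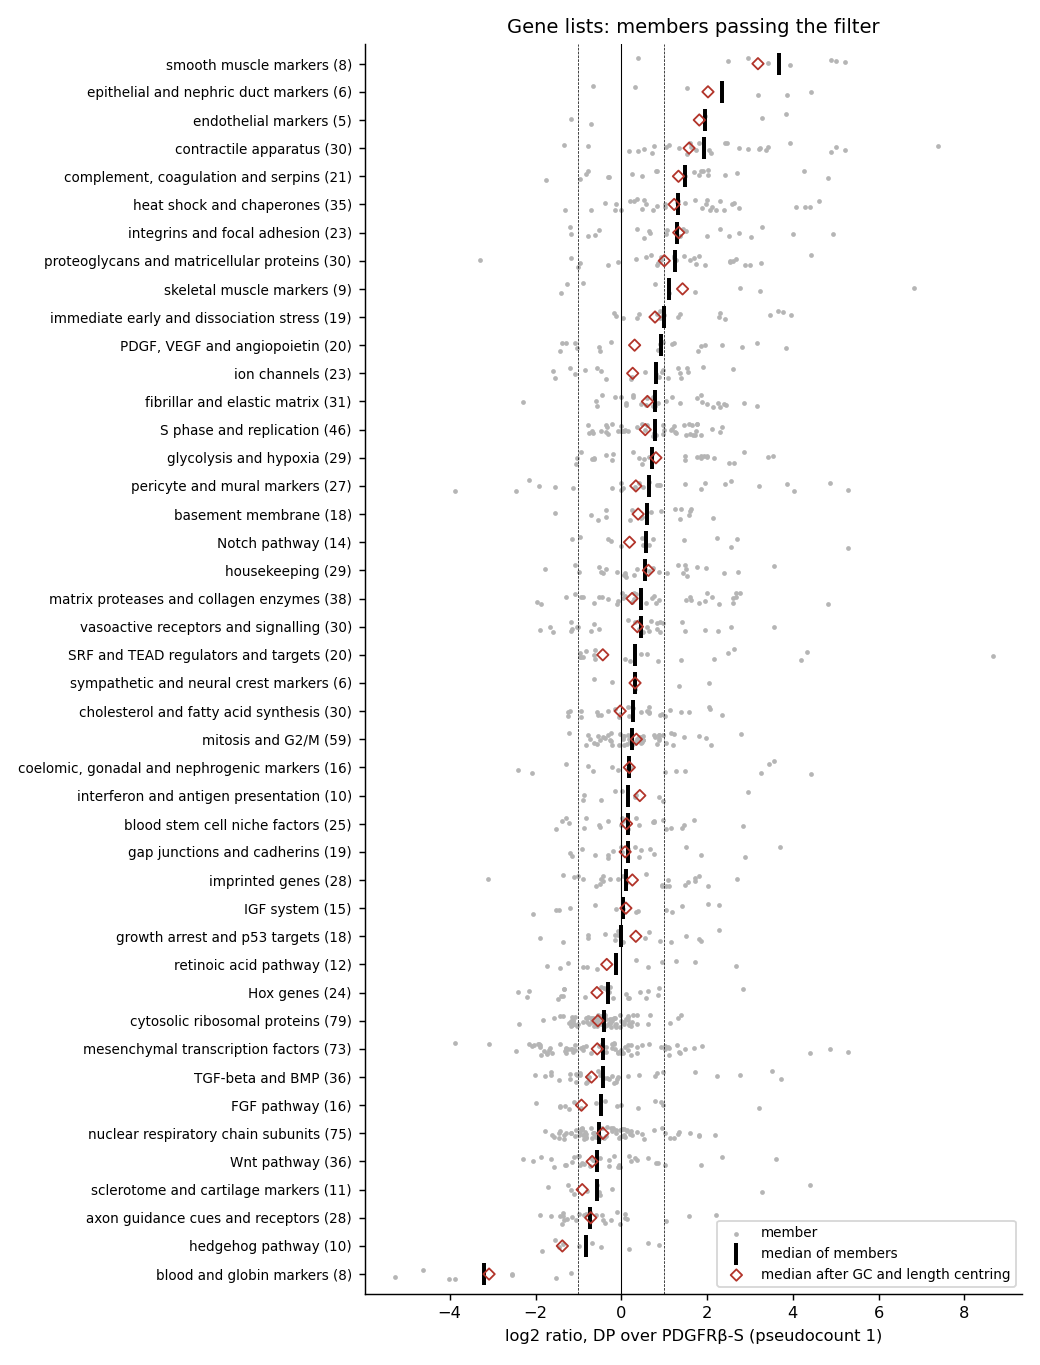
Log2 ratio of DP over PDGFRβ-S for the members of each gene list that passed the filter (gray dots, number in brackets), with the median of the list (black bar) and the median after centering for GC content and exon length (red diamond). Dashed lines mark 2-fold. Smooth muscle markers have a median of 3.67 and blood and globin markers one of -3.21, and the diamond falls on the other side of 0 from the bar for SRF and TEAD regulators and targets, cholesterol and fatty acid synthesis, and growth arrest.

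Several signaling lists had more members lower than higher in DP. Of 36 TGF-β and BMP genes 5 were 2-fold or more higher and 10 lower (median -0.43, centered -0.70). Inhba, the activin chain, was at 57.7 TPM in DP and 4.19 in PDGFRβ-S, Fstl3, which binds and blocks activin, at 50.8 and 2.94 TPM, and Tgfb3 at 118 and 16.4 TPM. Among the lower members were the receptor gene Tgfbr1, at 27.4 TPM in DP and 96.4 in PDGFRβ-S, and the signal transducers Smad5 (13.8 and 59.2 TPM) and Smad4 (20.97 and 67.9 TPM). Of 36 Wnt genes 4 were higher and 10 lower (median -0.57, centered -0.68). Notum, an enzyme that inactivates Wnt proteins, was at 11.2 TPM in DP and had 0 reads in PDGFRβ-S, Nkd1, a feedback inhibitor, was at 58.9 and 10.8 TPM, and Wnt2 at 134 and 36.1 TPM. The lowest ratios were those of Rspo2, a ligand that enhances Wnt signals, at 1.51 TPM in DP and 11.3 in PDGFRβ-S, and of the secreted inhibitor Wif1, at 1.99 and 11.4 TPM. Wnt5a was at 7.58 TPM in DP and 30.5 in PDGFRβ-S, the R-spondin receptor Lgr4 at 32.9 and 104 TPM and the co-receptor Lrp6 at 7.62 and 24.4 TPM.

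Hedgehog genes had the lowest median of the signaling lists, with 0 of 10 members 2-fold or more higher and 4 lower (median -0.83, centered -1.38). Gli3, a transcription factor of the pathway, was at 21.3 TPM in DP and 79.8 in PDGFRβ-S, and Ptch1, the receptor and a target, at 6.66 and 20.1 TPM. Of 16 FGF genes 1 was higher, the feedback inhibitor Spry4 (16.3 TPM in DP and 0.871 in PDGFRβ-S), and 6 were lower (median -0.48, centered -0.93), among them the receptor Fgfr2 (7.33 and 21.4 TPM). Of 12 retinoic acid genes 3 were higher and 3 lower, with a median of -0.12 (centered -0.34) that became 0.19 with TPM as deposited, where the median of all genes moved likewise, to 0.37. Aldh1a2, which makes retinoic acid, was at 486 TPM in DP and 199 in PDGFRβ-S, whereas Rdh10, which acts one step before it, was at 22.9 and 78.8 TPM.

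Of 20 genes of PDGF, VEGF and angiopoietin signaling 9 were higher and 5 lower (median 0.93, centered 0.31). Angpt2, an angiopoietin that loosens the contact between endothelium and mural cells, was at 166 TPM in DP cells, 17.7 TPM in PDGFRβ-S cells and 8.98 TPM in DN cells, while Angpt1, which stabilizes that contact, was at 19.01, 50.8 and 41.0 TPM. Of 15 IGF genes 5 were higher and 4 lower, with Igf1 at 25.9 TPM in DP and 111 in PDGFRβ-S and the binding protein gene Igfbp7 at 143 and 28.5 TPM. The IGF median of 0.03 (centered 0.11) changed sign under quantile normalization, to -0.15. The list of blood stem cell niche factors lay near the shares of all genes (20.4% higher and 14.8% lower), with 6 of 25 higher and 4 lower. Its median was 0.15 (centered 0.12, and -0.03 after quantile normalization). Cxcl12, the chemokine that holds blood stem cells in their niche, was at 128 TPM in DP and 126 in PDGFRβ-S, Bmp4 at 106 and 94.98 TPM, and the growth factor gene Mdk at 1242 and 2267 TPM. Kitl (stem cell factor) was at 3.51 TPM in DP cells, 9.47 TPM in PDGFRβ-S cells and 24.03 TPM in DN cells.

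Transcription factors of the mesenchyme were lower in DP more often than higher. Of 73 that passed, 28 were 2-fold or more lower and 14 higher (median -0.42, centered -0.56), although 6 of the 73 were 4-fold or more lower and 3 higher. Ebf3, a factor of early mesenchymal progenitors (chromosome 7, 137193673 to 137314445), was at 4.85 TPM in DP cells, 48.7 TPM in PDGFRβ-S cells and 21.6 TPM in DN cells, 10.05-fold lower in DP than in PDGFRβ-S (7.94 to 12.9). Its relative Ebf2 was at 7.56, 37.0 and 29.8 TPM, and the forkhead gene Foxc1 at 9.60, 56.9 and 32.3 TPM. Zic1, a zinc finger factor of dorsal mesoderm, rested on 3 reads in DP, 0.162 TPM, against 16.2 TPM in PDGFRβ-S and 9.05 in DN. Heyl and the forkhead gene Foxs1 (61.7 TPM in DP and 1.14 in PDGFRβ-S) were at the other end. Of 24 Hox genes 1 was higher and 8 lower, with Hoxd11 at 22.3 TPM in DP and 123 in PDGFRβ-S, and a median of -0.32 (centered -0.57) that became 0.05 with TPM as deposited, a scale on which the median of all genes was 0.37.

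Guidance genes, which steer axons and vessels, were also lower, with 3 of 28 members 2-fold or more higher and 10 lower (median -0.73, centered -0.71). Efnb2, the ephrin of arteries, was at 16.3 TPM in DP and 63.2 in PDGFRβ-S and Sema3a at 6.48 and 22.2 TPM, whereas the plexin gene Plxnb2 was at 81.2 and 16.8 TPM. Among receptors and channels of vascular tone the high members were Tbxa2r, the thromboxane receptor (64.3 TPM in DP cells, 4.53 TPM in PDGFRβ-S cells and 1.24 TPM in DN cells), Gucy1b3, a subunit of the nitric oxide receptor (36.9, 5.41 and 10.03 TPM), and Kcnmb1, the smooth muscle subunit of the large-conductance potassium channel (18.9, 2.26 and 3.04 TPM). Of 30 genes of vasoactive signaling 6 were higher and 8 lower (median 0.46, centered 0.37), and of 23 ion channel genes 8 were higher and 4 lower (median 0.81, centered 0.26). Over all genes, 20.4% were higher and 14.8% lower.

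Genes of the cell cycle and of metabolism were read against the 20.4% of all genes that were 2-fold or more higher and the 14.8% that were lower. Of 46 replication genes 20 were 2-fold or more higher in DP and 0 lower (median 0.78, centered 0.56), with the helicase subunit Mcm6 at 280 TPM in DP and 54.1 in PDGFRβ-S. Of 59 genes of mitosis 9 were higher and 1 lower (median 0.24, centered 0.35). The mitotic activators Cdc20 (659 and 94.1 TPM) and Plk1 (253 and 58.7 TPM) were at the top and Cks2 (909.5 and 2124.5 TPM) at the bottom. Of 29 glycolysis and hypoxia genes 14 were higher and 2 lower (median 0.73, centered 0.81), with the glucose transporter Slc2a1 at 99.6 TPM in DP and 7.65 in PDGFRβ-S and pyruvate kinase (Pkm) at 1774 and 165 TPM. The hypoxia targets Bnip3 (60.5 TPM in DP and 126 in PDGFRβ-S) and Egln1 (19.9 and 42.1 TPM) were the 2 lower members, and the hexokinase gene Hk2 was at 7.13 and 14.7 TPM.

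Of 35 heat shock and chaperone genes 21 were higher and 1 lower (median 1.32, centered 1.23). They included the small heat shock genes Hspb1 (636 TPM in DP cells, 29.2 TPM in PDGFRβ-S cells and 23.9 TPM in DN cells) and Cryab (230.3, 10.96 and 52.6 TPM), which protect the cytoskeleton of muscle, and the chaperones of the endoplasmic reticulum Pdia4 (569 TPM in DP and 83.5 in PDGFRβ-S) and Calr (851 and 172 TPM). Of 19 immediate early genes, which also respond to cell dissociation, 10 were higher and 0 lower (median 1.00, centered 0.79), led by Nr4a1 (17.7 TPM in DP cells, 0.202 TPM in PDGFRβ-S cells and 3.72 TPM in DN cells), Atf3 (18.01, 0.390 and 0.171 TPM) and Ier3 (56.2, 3.53 and 3.10 TPM). Fos itself was at 1.57 TPM in DP and 0.395 in PDGFRβ-S. These genes respond to handling as well as to signals in the embryo, and their part in the other results was not tested. Of 29 housekeeping genes 11 were higher and 2 lower (median 0.56, centered 0.63), with the cytoplasmic actin gene Actb at 4807 TPM in DP and 1214 in PDGFRβ-S and the cyclophilin gene Ppia at 2858 and 5632 TPM.

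Ribosomal protein genes and respiratory chain genes shifted slightly the other way. Of 79 cytosolic ribosomal protein genes 3 were 2-fold or more higher in DP and 17 lower (median -0.40, centered -0.55), and of 75 nuclear genes of the respiratory chain 9 were higher and 13 lower (median -0.52, centered -0.43). With TPM as deposited, these medians came to -0.02 and -0.14, against 0.37 over all genes. Within both lists the ends lay apart. Rplp0 (2711 TPM in DP and 1033 in PDGFRβ-S) and Rpl4 (4852 and 1947 TPM) stood against Rpl39 (287 and 1497 TPM), and the ATP synthase genes Atp5b (1132 and 249 TPM) and Atp5a1 (659 and 187 TPM) against Cox7b (286 and 989 TPM) and Uqcrb (606 and 1864 TPM). Centered for GC content and length, the log2 ratios of Rplp0, Rpl4 and Rpl39 were 0.67, 1.35 and -2.33. Those of Atp5b, Atp5a1, Cox7b and Uqcrb were 1.63, 1.10, -1.24 and -0.48.

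Further groups were picked by gene symbol after their values had been seen, and are given as a description. All 7 annexin genes that passed were 2-fold or more higher in DP (median 2.00, centered 1.51), with Anxa1 at 111 TPM in DP cells, 2.12 TPM in PDGFRβ-S cells and 1.75 TPM in DN cells and Anxa6 at 690, 46.0 and 47.5 TPM. Annexins bind membranes in the presence of calcium. All 12 tubulin genes that passed were higher (median 2.06, centered 1.42), as were 15 of 23 genes of LIM domain proteins, which link actin to adhesions (median 1.43, centered 1.08), and 6 of 9 cathepsin genes (median 2.28, centered 1.64). Tubb6 was at 823 TPM in DP cells, 42.4 TPM in PDGFRβ-S cells and 47.2 TPM in DN cells, and the lysosomal protease Ctsd at 237, 16.6 and 52.9 TPM. Of 63 genes of the histone clusters 33 were 2-fold or more lower and 0 higher (median -1.03, centered -0.61). Reads of near-identical histone genes may be shared, so that the single levels of Hist1h2ao (3438 TPM in DP and 5442 in PDGFRβ-S) and Hist1h2ap (3427 and 5430 TPM) are uncertain.

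Of the genes that passed the filter, 22 had 0 reads in PDGFRβ-S and 10 had 0 reads in DP. Besides Ankrd1, the first set held Sfn, an adaptor protein of epithelia (57.5 TPM in DP), Hspb2 (23.4 TPM), and the chemokine gene Ccl11 (20.3 TPM). It also held Olfr78, an olfactory receptor gene known from vascular smooth muscle and from renin-producing cells of the kidney (17.5 TPM, on 234 reads), and Ren1, the renin gene (12.1 TPM, on 48 reads). Olfr78 had 0 reads in DN too, and Ren1 was at 2.43 TPM there. The second set held the claudin genes Cldn34c2 and Cldn34c3, with 24.2 and 35.6 TPM in PDGFRβ-S on 34 and 50 reads, and Ly6c1, a surface protein of leukocytes and endothelium (17.9 TPM, on 118 reads). Reads of genes seen in 1 library are approximate, since their length is loosely determined.

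Globins led the lower side. Hbb-y, an embryonic β-globin (chromosome 7, 103851745 to 103853240), was at 664 TPM in DP cells, 25975 TPM in PDGFRβ-S cells and 22195 TPM in DN cells, 39.1-fold lower in DP than in PDGFRβ-S (36.7 to 41.8). It was the most abundant gene of the PDGFRβ-S library. The 8 globin genes together took 0.304% of the total in DP cells, 4.47% in PDGFRβ-S cells and 4.24% in DN cells. All 8 blood markers that passed were 2-fold or more lower in DP (median -3.21, centered -3.08), but 5 of the 24 genes on the list, the leukocyte genes Spi1, Adgre1, Ptprc, Tyrobp and Fcer1g, had 0 reads in DP and PDGFRβ-S. The globins thus separated DP from the other libraries.

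Other genes low in DP came from varied groups. Kctd12, an auxiliary subunit of GABA-B receptors, was at 6.31 TPM in DP cells, 79.0 TPM in PDGFRβ-S cells and 40.0 TPM in DN cells, 12.5-fold lower in DP than in PDGFRβ-S (10.1 to 15.7). The metallothionein gene Mt1 was at 3.39, 39.8 and 39.8 TPM, the transcription factor gene Gcm1 at 6.29, 65.8 and 33.4 TPM, and Rhox8, a homeobox gene of the X chromosome, at 84.3, 630.2 and 389 TPM. Predicted genes were 31 of the 151 lower genes, 20 of the 573 higher genes and 499 of all 9919 genes that passed. A set of 12 predicted genes with satellite-like sequence, picked after its values were seen, summed to 1140 TPM in DP cells, 12077 TPM in PDGFRβ-S cells and 9081 TPM in DN cells. Single-exon genes made up 10% of the lower genes, 2.44% of the higher genes and 2.73% of all passing genes, and the median number of exons was 4, 9 and 9.

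Markers of further cell types were followed in both libraries. Of 24 endothelial markers, 5 passed the filter, 3 of them 2-fold or more higher in DP and 1 lower (median 1.94, centered 1.82), and the list summed to 105 TPM in DP cells, 43.5 TPM in PDGFRβ-S cells and 48.3 TPM in DN cells. Flt1, a VEGF receptor, was at 18.4, 0.347 and 0.152 TPM, Esam at 11.7, 0.300 and 2.11 TPM, and Ecscr at 33.5, 7.99 and 0.195 TPM. Flt1 and Esam passed the filter only through their level in DP, so the median of the 5 does not describe the 24 markers. The defining endothelial genes Cdh5, Tie1, Sox17, Icam2, Robo4 and Cldn5 had 0 reads in DP and PDGFRβ-S, and Kdr was at 2.80 TPM in DP and 3.52 in PDGFRβ-S. Epithelial genes were split likewise. Krt8, Krt18 and Krt19, the keratins of simple epithelia and mesothelium, were at 265, 154 and 53.9 TPM in DP, against 11.3, 16.1 and 2.78 TPM in PDGFRβ-S, while Cdh1, Pax2 and Lhx1 had 0 reads in both and Epcam was at 11.2 and 8.82 TPM. The list of 25 epithelial and nephric duct genes summed to 558 TPM in DP cells, 65.9 TPM in PDGFRβ-S cells and 197 TPM in DN cells. The mesothelial genes Lrrn4 (10.8 TPM in DP, 0 reads in PDGFRβ-S and 11.5 TPM in DN) and Upk1b (19.1, 0.847 and 15.4 TPM) were also higher in DP, with Msln at 0 reads in DP and PDGFRβ-S. Lrrn4 and Upk1b passed the filter only through their level in DP. Of the 16 coelomic, gonadal and nephrogenic markers that passed, 7 were 2-fold or more higher in DP and 3 lower (median 0.18). The part of endothelial, epithelial and mesothelial cells in the other results was not tested.

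Sympathetic genes were as scarce in DP as in PDGFRβ-S, with sums over 30 genes of 127 and 125 TPM against 1383 TPM in DN, and Th, Dbh and Sox10 had 0 reads in both. The skeletal muscle list of 31 genes summed to 4526 TPM in DP cells, 518 TPM in PDGFRβ-S cells and 1689 TPM in DN cells, of which the actins Actc1 and Acta1 (658 TPM in DP and 95.9 in PDGFRβ-S) made up most in DP. The myogenic factor genes Myog and Myf6 had 0 reads in DP and PDGFRβ-S, and Pax3 (3.87 and 11.9 TPM) and Myf5 (2.63 and 7.67 TPM) were lower in DP. Of 11 genes of sclerotome and cartilage 2 were 2-fold or more higher in DP, among them Tnmd (33.8 TPM in DP and 2.58 in PDGFRβ-S), and 4 were lower (median -0.57, centered -0.91), among them Sox9 (23.2 and 56.7 TPM).

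The DN library, which also lacks NG2, was set beside the genes called. For the 573 genes higher in DP the median level was 49.5 TPM in DP cells, 6.70 TPM in PDGFRβ-S cells and 12.9 TPM in DN cells, and DN was nearer to PDGFRβ-S than to DP on the log2 scale for 450 genes, or 78.5%. For the 151 lower genes the medians were 4.74, 31.4 and 29.8 TPM, and DN was nearer to PDGFRβ-S for 140 genes, or 92.7%. DN was at or above the DP level for 11 of the higher genes and at or below it for 3 of the lower genes. Since the genes were chosen by the difference between DP and PDGFRβ-S, and PDGFRβ-S is used in both readings, these counts are a description.

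**Figure D5:**
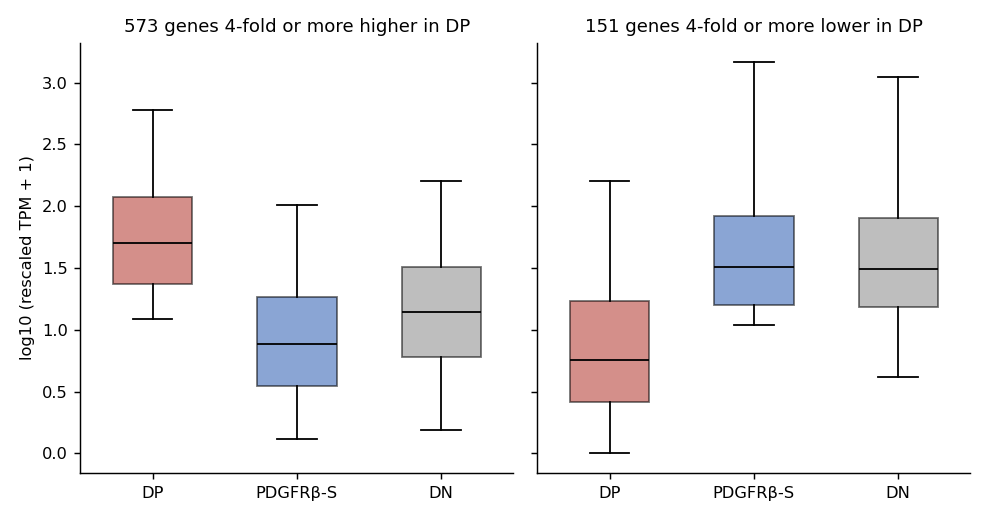
Log10 of rescaled TPM + 1 in the DP (red), PDGFRβ-S (blue) and DN (gray) libraries for the 573 genes 4-fold or more higher in DP (left) and the 151 genes 4-fold or more lower in DP (right). Boxes span the 25th to 75th percentiles of the genes with the median as a line, and whiskers run between the 5th and 95th percentiles of the genes. In both panels the DN box lies closer to that of PDGFRβ-S than to that of DP, with medians of 12.9 and 29.8 TPM.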

How the data were processed

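RNA-seq was made from sorted cells by a Smart-seq2-type protocol without molecular identifiers or strand information and sequenced as single reads. TopHat2 2.0.10 and the mm10 build are named in the submitters' processing notes. The authors deposited TPM for every gene. The study's methods name Cufflinks with RefSeq transcripts as the source of TPM and, for read counts, summarizeOverlaps in union mode over GENCODE M19. The deposited table has Ensembl gene IDs and values that are whole reads over a length, and which of these routes made it is not settled here. How multiply aligned reads were treated was not worked out. A second sheet of 4 columns for 2 genes was not used.

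TPM of nuclear protein-coding genes were rescaled to 1000000 per library (Python 3.11.15, numpy 2.4.6, pandas 2.3.3, scipy 1.17.1, matplotlib 3.10.9). The log2 ratio used a pseudocount of 1 and genes with a mean of 5 or more. Reads were recovered because TPM times exon length is a whole multiple of 1 constant per library, with the length nearest to that of GENCODE M21 that gave whole reads. Whole reads, within 0.002 of a read, came out for 100% of the 9378 genes that had 50 to 5000 of them in every library, against 0.1% of 1000 of them with shifted constants. Of the genes that passed the filter, 91.6% took their reads from a length other than the annotated one (9090 genes, against 816). Simulated data had a smaller share of wrong lengths. Recovery there was exact in 100% of genes with the right length and in 73.3% with a wrong one. Reads of single genes are therefore approximate. They were used for depth and intervals only. The gene lists, of which 44 were counted at 2-fold, and the members of each were chosen with earlier results of these data known. GC content is that of the longest annotated transcript.

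Named genes are the genes of the sort, the 15 highest and 15 lowest ratios at a mean of 10 or more without predicted genes, the 3 highest and 3 lowest of each list, the 10 most abundant genes of each library and markers of other cell types. Further members are named for their known role after their values were seen. Alternatives were pseudocounts of 0.1 and 5, other filters and limits, 4 other scalings and, added after the data were seen, centering on 50 bins of GC content and 50 of exon length. With 1 library a group, no test was made. Some genes that this rule names are not reported here.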

Additional observations from a re-analysis of the deposited data

How the results depend on the processing

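The 573 higher and 151 lower genes stayed within 1.5 times their number with a pseudocount of 0.1, without the 20 highest genes, with median centering and with quantile normalization. With a pseudocount of 5 they were 313 and 58, with a mean of 20 TPM or more 354 and 72, at a limit of 3-fold 1020 and 423, at 8-fold 156 and 39, and with the counting interval past 2-fold 1621 and 1001. The lower genes numbered 63 with TPM as deposited, a scale that moved the median log2 ratio of all genes to 0.37, and 290 with a mean of 1 TPM or more or with no filter. Centering for GC content and exon length, added after the data were seen, left 333 higher genes. The higher genes made up 92.7% of those counted with TPM as deposited and 62.6% after that centering. Of 44 list medians 36 kept their sign under 5 scalings, and 8 did not: SRF and TEAD, IGF, retinoic acid, niche factors, Hox, growth arrest, cholesterol synthesis and imprinted genes. Among the 278 named genes, none of those called at 4-fold or more changed sign. Ratios of that size lie far from 0, so this check could hardly have come out otherwise. Named genes that were not called did change sign when centered for GC content and length. Examples are B2m, with a log2 ratio of -0.48 (centered 0.56), and Gli2, with 0.19 (centered -0.56). No paired analysis was possible because each population had 1 library. Without replicates, counting error is the only error that could be given, and the libraries' differences in embryo, sort, cell number and amplification cannot be told apart from those of the cells.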

Other observations

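Imprinted genes, a group not described above, were mixed, with 10 of 28 members 2-fold or more higher in DP and 4 lower (median log2 ratio 0.10, centered 0.26, and -0.01 after quantile normalization). Dlk1, a surface protein related to Notch ligands, was at 40.3 TPM in DP cells, 5.39 TPM in PDGFRβ-S cells and 6.64 TPM in DN cells, and the growth inhibitor Cdkn1c at 575, 163 and 247 TPM. Igf2r, the receptor that clears IGF2, was at 91.5, 21.9 and 31.6 TPM. Rtl1, a gene derived from a retrotransposon, was at 0.431, 11.4 and 9.45 TPM and Plagl1, a zinc finger factor, at 144, 372 and 324 TPM.

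Genes of cholesterol and fatty acid synthesis had 7 of 30 members 2-fold or more higher in DP and 3 lower, with a median of 0.26 that became -0.03 after centering for GC content and length. Fads2, a fatty acid desaturase, was at 70.9 TPM in DP and 13.3 in PDGFRβ-S and the cholesterol enzyme gene Dhcr7 at 29.7 and 6.38 TPM, against Scd1 at 18.5 and 45.1 TPM. Growth arrest genes were split in the same way, with 5 of 18 higher and 2 lower, and their median of -0.02 became 0.34 both with TPM as deposited, where that of all genes was 0.37, and after that centering. Trp53 was at 161 TPM in DP and 43.6 in PDGFRβ-S, and Gas1, a co-receptor of hedgehog, at 74.7 and 194 TPM. Of 10 genes of interferon response and antigen presentation 1 was higher, Bst2, at 41.9 TPM in DP and 4.58 in PDGFRβ-S, and 0 were lower (median 0.17, centered 0.43).

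Sensory receptor genes, picked by symbol after their values were seen, were detected less widely in DP. Of 1108 olfactory receptor genes 18 had reads in DP cells, 47 in PDGFRβ-S cells and 40 in DN cells. Of 328 vomeronasal receptor genes 22, 54 and 55 did, in the same order. Only 2 of the olfactory and 1 of the vomeronasal receptor genes passed the filter, so most of these counts rest on low levels. These receptor counts take any read. At another limit, 1 TPM or more, all nuclear protein-coding genes were also fewest in DP, at 12563 against 12741 in PDGFRβ-S and 13630 in DN. Whether the receptor genes differ in this from other genes of like level was not tested.

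The remaining lists are given by their counts at 2-fold. Of 18 basement membrane genes 7 were higher in DP and 1 lower (median 0.59, centered 0.39), of 19 gap junction and cadherin genes 4 were higher and 2 lower (median 0.15, centered 0.09), and of 16 coelomic, gonadal and nephrogenic markers 7 were higher and 3 lower (median 0.18, centered 0.19). Of 9 skeletal muscle markers 5 were higher and 2 lower (median 1.10, centered 1.43), of 6 epithelial and nephric duct markers 4 were higher and 0 lower (median 2.36, centered 2.02), and of 6 sympathetic and neural crest markers 2 were higher and 0 lower (median 0.32, centered 0.32). A marker can pass the filter through its level in 1 library, so these medians do not describe the whole lists. Cdh3, a cadherin of epithelia, was at 98.1 TPM in DP cells and 6.66 TPM in PDGFRβ-S cells, and the basement membrane gene Col4a1 at 99.4 and 31.7 TPM.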
